A study of Mus musculus with 10 samples.

Results

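The genes described here mark the stage of a developing T cell or carry out the recombination of its antigen receptor. They are Cd4, Cd8a and Cd8b1 (coreceptors), Rag1, Rag2 and Dntt (receptor gene recombination), Cd44, Il2ra and Kit (early thymocyte surface proteins) and Cd24a (a surface protein of immature thymocytes). They were taken by gene symbol from the table of normalized counts, in which all 10 were found among 20813 genes, and all 10 passed the filter on low values. The rule that picks them uses no measured value, although it was written with earlier results of these data known. RNA was sequenced from 10 spleens of mice into which T-ALL had been injected, that is, acute lymphoblastic leukemia of the T lineage. Strain was given as C57BL/6, and every leukemia, controls included, carried a conditional Sirt1 allele and grew in a host that had been irradiated below the lethal dose. The 5 control mice received corn oil, and the 5 mice labelled Sirt1-deleted received tamoxifen at 3 mg per mouse in corn oil, both into the peritoneum. Tamoxifen and deletion therefore cannot be told apart. The labels name neither the Cre line nor the number of primary leukemias, nor do they give an age, so the spread between samples may be that of recipients of 1 leukemia.

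Thymocytes first pass through stages without CD4 and CD8, which are told apart by CD44, the stem cell factor receptor KIT and the interleukin 2 receptor chain CD25 (Il2ra). During these stages RAG1 and RAG2 together cut the receptor gene segments, and terminal transferase (Dntt) adds nucleotides at the joints. Cells that pass the beta-chain checkpoint gain both coreceptors and lose CD25, start a further round of recombination, and later shut off the RAG genes, lower CD24 and keep 1 coreceptor.

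The deposited values summed to between 33.7 and 34.5 M (mega) per sample. Sirt1, which encodes a protein deacetylase, was at 1735 to 1909 in controls and at 1715 to 2097 in the labelled Sirt1-deleted samples, so this gene-level value did not separate the groups. The labels do not say which exons the deletion removes, and the group is called by its label throughout. Of 15276 genes tested with limma on log2(normalized count + 1), 36.1% differed at a Benjamini-Hochberg adjusted p under 0.05, 16.8% higher and 19.4% lower in the labelled Sirt1-deleted samples. Labelled Sirt1-deleted replicates 10 and 11 correlated with the controls at a mean Pearson r across genes of 0.977 and 0.981, and replicates 7, 8 and 12 at 0.968 to 0.974. T-lineage transcripts were present in every sample: Cd3e, a chain of the T-cell receptor complex, lay at the 98.4 percentile of tested genes by control level per kb, and Thy1, a T-cell surface protein, at the 99.4 percentile. Markers of other cells moved with the group. Of 13 neutrophil markers tested, 12 were higher, and their summed value was 0.0268% to 0.0369% of the total in controls and 0.173%, 0.290%, 0.0838%, 0.114% and 0.130% in labelled Sirt1-deleted replicates 7, 8, 10, 11 and 12. Of 12 macrophage and monocyte markers, 10 were higher, with sums of 0.00951% to 0.0108% against 0.0198% to 0.0371%. No marker of either list was at 0 in all samples. Of the 9 dendritic cell markers tested, 4 were higher, while 0 of 11 B cell and 0 of 12 erythroid markers passed the test. The part of these cells in the results below was not tested. In bulk RNA, fewer cells of a type and less RNA per cell cannot be told apart.

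In the control leukemias, per kb of transcript, the coreceptors, Rag1, Dntt and Cd24a stood at high levels and the early surface genes at low ones. On the scale of normalized count per kb of transcript, the order of the control means was Cd24a (7110), Dntt (4067), Cd8b1 (2170), Cd4 (1403), Cd8a (938), Rag1 (772), Il2ra (99.3), Cd44 (81.7), Kit (41.8) and Rag2 (19.97). The median of the 13856 tested genes with a known transcript length was 259.9 on the same scale, so 6 of these genes lay above it and 4 below. Along this order the control ranges of neighbours overlapped for only 1 pair, Il2ra (78.6 to 112) and Cd44 (68.9 to 94.5). Cd24a lay at the 98.0 percentile and Rag2 at the 20.6 percentile. The partners of the recombinase thus stood far apart in the deposited values: Rag1 was 38.7 times Rag2 per kb of transcript and 37.8 times per kb of coding sequence. An annotated gene that shares exon sequence with both, B230118H07Rik, had a mean normalized count of 388 in controls, where Rag2 had 68.4. How reads were divided among these genes is not given, so the gap and the low place of Rag2 may depend on it. With coding length in place of transcript length, Cd8a (3961) came before Cd4 (3181). Il2ra (545) then moved from the 34.8 to the 49.2 percentile, near the middle of tested genes, while Cd44 and Kit stayed low, at the 33.7 and 24.8 percentiles. These are averages over each spleen suspension, and whether 1 cell held both coreceptors was not measured.

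**Figure D1:**
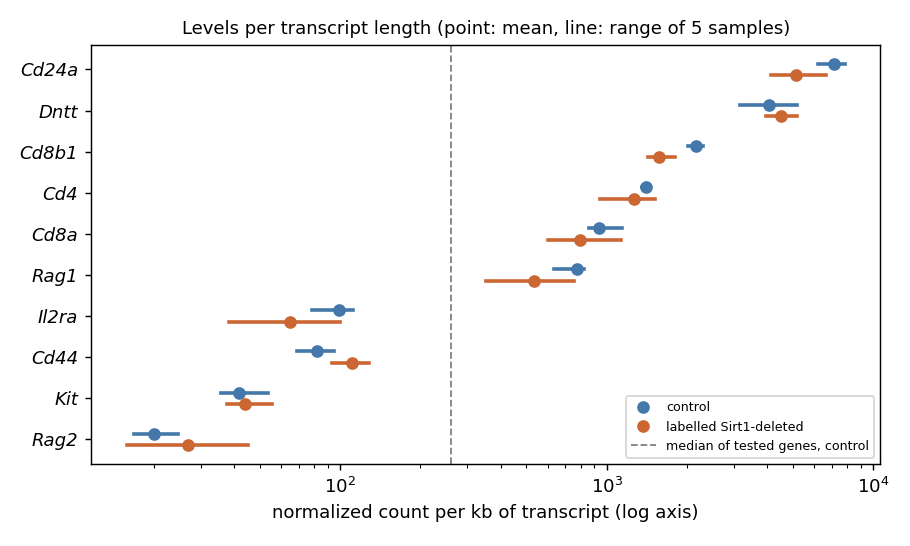
Normalized count per kb of transcript (log axis) for each of the 10 genes, with the mean as a point and the range of 5 samples as a line, in control (blue) and labelled Sirt1-deleted (orange) samples. Cd24a (7110 in controls) is at the top and Rag2 (19.97) at the bottom, and the dashed line is the control median of tested genes (259.9).

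Between the groups, 5 of the 10 genes passed the test, where 36.1% of all tested genes did. Cd44 alone was higher, and Cd8b1, Rag1, Il2ra and Cd24a were lower. For 1 of the 10, Cd8b1, the samples of one group lay wholly below those of the other, where 24.0% of all tested genes had no overlap. Cd4, Cd8a, Rag2, Dntt and Kit did not pass the test. The median log2 difference of the 10 genes was -0.22, and that of all tested genes was -0.00014. In the plot of log2 differences, the widest intervals belong to Rag1, Rag2 and Il2ra.

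**Figure D2:**
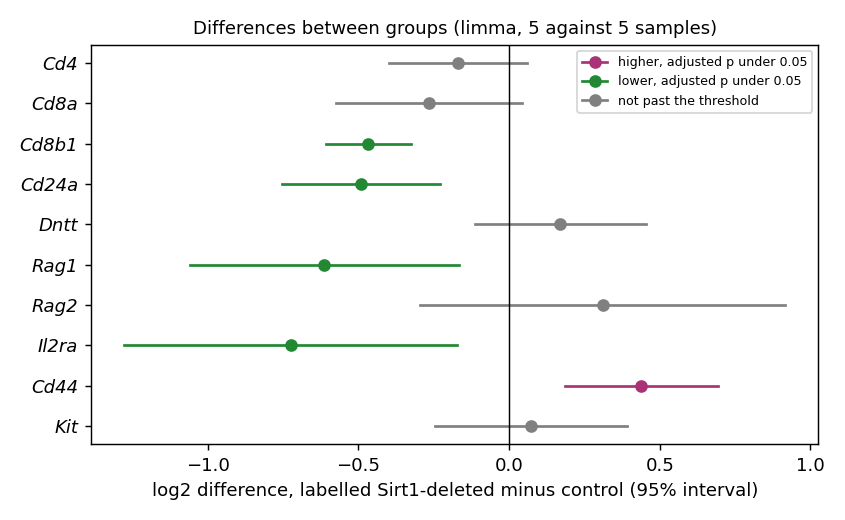
Log2 difference on the log2(normalized count + 1) scale, labelled Sirt1-deleted minus control, with its 95% interval from limma (5 against 5 samples). Cd44 (0.44) lies to the right and past the threshold, while Cd8b1 (-0.47), Cd24a (-0.49), Rag1 (-0.61) and Il2ra (-0.73) lie to the left and past it.

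The coreceptors bind MHC molecules beside the T-cell receptor: CD4 binds class II, and the CD8 alpha and beta chains form the class I coreceptor. Cd8b1, the beta chain (ENSMUSG00000053044.8, chr6:71322788-71337494 in mm10, plus strand), had normalized counts of 2986, 3421, 3178, 3317 and 3187 in control replicates 2 to 6. In labelled Sirt1-deleted replicates 7, 8, 10, 11 and 12 it had 2215, 2370, 2287, 2679 and 2116. Every labelled Sirt1-deleted sample was below every control. The mean fell from 3218 ± 164 to 2333 ± 215 (SD, n = 5 each), a log2 difference of -0.47 (SE 0.06, limma adjusted p = 0.000581). The exact two-sided permutation p was 0.00794, the smallest that 5 against 5 samples allow.

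Cd8a, the alpha chain, is the neighbour of Cd8b1 on chromosome 6, 35.9 kb away (ENSMUSG00000053977.13, chr6:71373427-71379173, plus strand). Its values were 2756, 2951, 2680, 3573 and 2717 in controls and 1890, 2048, 2536, 3525 and 2439 in the labelled Sirt1-deleted samples. Replicates 7, 8, 10 and 12 were below all controls, and replicate 11 was near the highest control, replicate 5. The log2 difference of -0.27 (95% interval -0.57 to 0.04) did not pass the test (limma adjusted p = 0.164; exact permutation p = 0.159). Without labelled Sirt1-deleted replicate 11 it was -0.40 and passed (limma adjusted p = 0.0126). The ratio of Cd8a to Cd8b1 within a sample was 0.843 to 1.08 in controls and 0.854 to 1.32 in the labelled Sirt1-deleted samples, and these ranges overlapped (exact permutation p = 0.159, 0.212 adjusted over 4 ratios).

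Cd4 (ENSMUSG00000023274.14, chr6:124864692-124888221, minus strand) differed little among controls, with values of 4463, 4448, 4210, 4378 and 4305, and was spread wider in the other group, with 4576, 4700, 2929, 3630 and 3833. Replicates 7 and 8 were above all controls, and replicates 10, 11 and 12 were below all of them. The coefficient of variation was 2.42% in controls and 18.5% in the labelled Sirt1-deleted samples. The means of 4361 ± 105 and 3934 ± 727 (SD, n = 5 each) differed by more than the control SD but less than that of the labelled Sirt1-deleted group. The difference did not pass the test (log2 difference -0.17, 95% interval -0.40 to 0.06, limma adjusted p = 0.227). As Cd8a was lowest in the libraries where Cd4 was highest, the ratio of Cd4 to Cd8a within a sample ranged from 1.03 in replicate 11 to 2.42 in replicate 7. In controls that ratio ranged from 1.23 to 1.62, and the groups did not differ in it (log2 difference 0.10, exact permutation p = 0.762). Its sign turned without replicate 7 (-0.05) or without replicate 8 (-0.03).

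**Figure D3:**
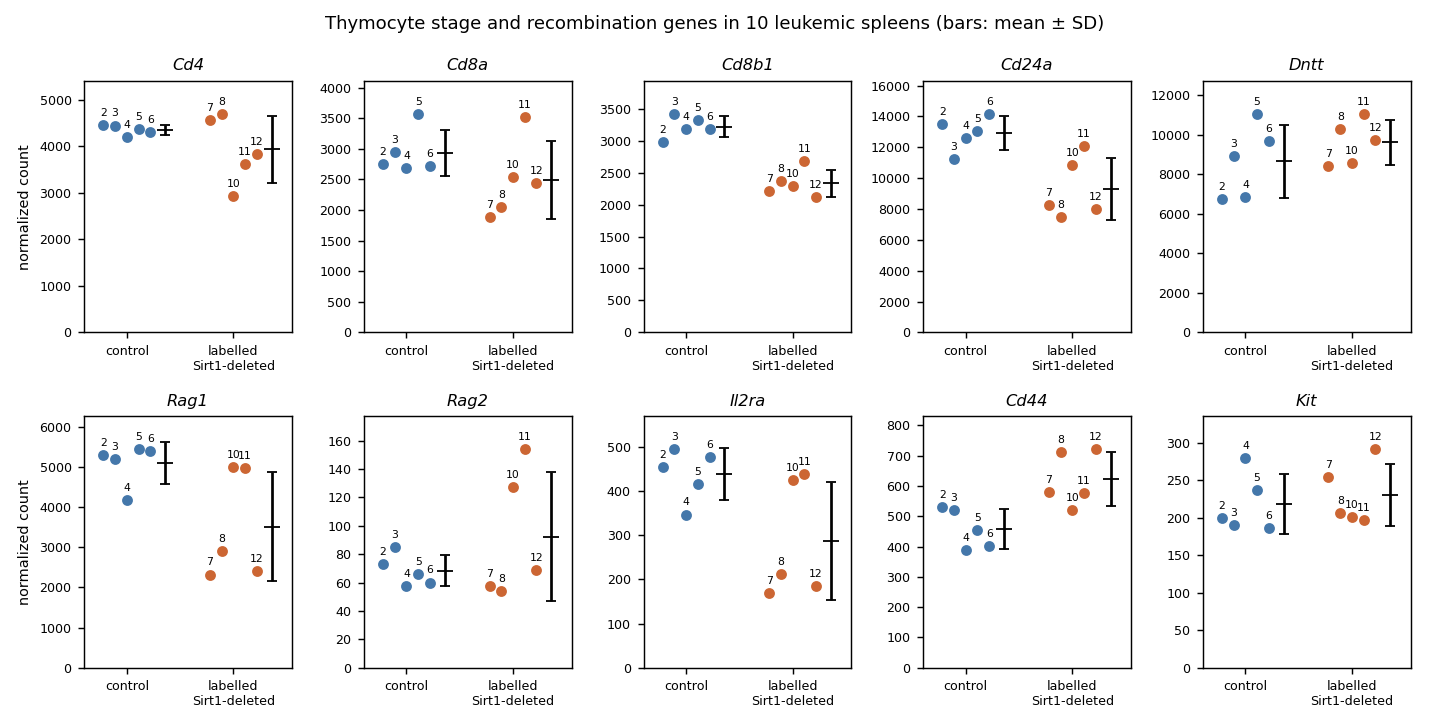
Normalized count of each gene in each sample, with the replicate number above the point and the mean ± SD of 5 samples as a black bar, for control (blue) and labelled Sirt1-deleted (orange) samples; axes start at 0. Cd8b1 is the gene whose groups do not overlap, and for Rag1 and Il2ra replicates 10 and 11 lie among the controls while replicates 7, 8 and 12 lie below.

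RAG1 carries the active site of the recombinase and RAG2 is its partner. The genes lie 5.75 kb apart on chromosome 2 and are read towards each other: Rag1 (ENSMUSG00000061311.6) at chr2:101638282-101649501 on the minus strand and Rag2 (ENSMUSG00000032864.4) at chr2:101624718-101632529 on the plus strand. The 250 bases before their starts are shown with those of Il2ra, because all 3 genes were lower in labelled Sirt1-deleted replicates 7, 8 and 12 than in replicates 10 and 11. Cd8a and Cd24a were also lower in replicates 7, 8 and 12 than in replicates 10 and 11, so this trait is not particular to the genes shown. The windows are from RefSeq (GRCm38.p6), 5′ to 3′ on the gene's strand, at chr2:101649533-101649782 for Rag1, chr2:101624462-101624711 for Rag2 and chr2:11642542-11642791 for Il2ra. Capitals mark TGTGGT, the core letters of RUNX factor sites, and CCAAT, a common promoter element, searched on both strands.
Rag1: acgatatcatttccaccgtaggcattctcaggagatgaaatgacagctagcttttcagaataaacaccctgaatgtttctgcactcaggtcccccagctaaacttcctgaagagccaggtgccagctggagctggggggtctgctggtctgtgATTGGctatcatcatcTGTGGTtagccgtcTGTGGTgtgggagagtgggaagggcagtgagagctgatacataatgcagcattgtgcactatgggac
Rag2: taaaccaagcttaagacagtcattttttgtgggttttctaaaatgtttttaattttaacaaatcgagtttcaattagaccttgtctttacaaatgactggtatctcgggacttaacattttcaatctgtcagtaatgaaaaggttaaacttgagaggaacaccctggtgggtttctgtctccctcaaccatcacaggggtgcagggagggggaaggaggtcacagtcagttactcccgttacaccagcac
Il2ra: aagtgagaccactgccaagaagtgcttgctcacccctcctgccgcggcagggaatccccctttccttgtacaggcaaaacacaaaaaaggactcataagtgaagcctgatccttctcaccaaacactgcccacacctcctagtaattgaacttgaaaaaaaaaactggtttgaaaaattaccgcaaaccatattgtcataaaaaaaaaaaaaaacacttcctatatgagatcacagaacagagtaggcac
The Rag1 window held TGTGGT at 81 and 67 bases before the start and CCAAT, on the opposite strand, at 97 bases before it, and the other windows shown held neither. Among 32851 promoter windows of this length, 14.05% held TGTGGT and 33.8% held CCAAT. E-boxes (CANNTG, in 66.2% of windows) numbered 3 in Rag1, of which the one at 85 bases before the start shares 2 bases with a TGTGGT, 1 in Rag2 and 0 in Il2ra. The windows of Cd8a and Dntt, not shown, held neither TGTGGT nor CCAAT and had 2 and 3 E-boxes. Of the 10 genes, 7 had a window in the table. Cd4, Cd8b1 and Cd24a had none, and these matches describe letters only.

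Rag1 fell in the labelled Sirt1-deleted group as a whole, but not in each of its libraries. Normalized counts were 5293, 5190, 4185, 5443 and 5392 in controls, and 2323, 2902, 4997, 4967 and 2404 in labelled Sirt1-deleted replicates 7, 8, 10, 11 and 12. Replicates 7, 8 and 12 were below all controls, at 45.5%, 56.9% and 47.1% of the control mean. Replicates 10 and 11 were within the control range, at 98.0% and 97.4%. The means were 5101 ± 521 and 3519 ± 1354 (SD, n = 5 each), with a log2 difference of -0.61 (95% interval -1.06 to -0.17, limma adjusted p = 0.0344; exact permutation p = 0.0556). The call was lost in 7 of the 10 fits that left out 1 sample, those without control replicate 2, 3, 5 or 6 or labelled Sirt1-deleted replicate 7, 8 or 12, with differences between -0.61 and -0.48 and a largest adjusted p of 0.0852. The summed neutrophil markers were 0.0838% and 0.114% in replicates 10 and 11 and 0.130% to 0.290% in replicates 7, 8 and 12. The macrophage sum was 0.0234% in replicate 11 and 0.0222% in replicate 12, whose Rag1 values lay far apart. The part of these cells in the Rag1 values was not tested.

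Rag2 was the lowest of the 10 genes per kb by the mean of either group. Its values were 73.3, 84.7, 57.5, 66.3 and 60.0 in controls and 57.7, 54.2, 127, 154 and 68.7 in the labelled Sirt1-deleted samples. Replicates 10 and 11, whose Rag1 was at the control level, were above all controls in Rag2, at 186% and 225% of the control mean. Replicate 8 was below all controls, and replicates 7 and 12 were within the control range, replicate 7 near its lower end. Within the labelled Sirt1-deleted group, replicates 7, 8 and 12 were thus the lowest in both Rag1 and Rag2. The log2 difference of 0.31 (95% interval -0.30 to 0.92) did not pass the test (limma adjusted p = 0.408).

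The ratio of Rag1 to Rag2 within a sample, which hardly depends on how a library is scaled, was lower in every labelled Sirt1-deleted sample. It was 72.2, 61.3, 72.7, 82.1 and 89.8 in controls and 40.3, 53.5, 39.3, 32.3 and 35.0 in replicates 7, 8, 10, 11 and 12. In replicates 7, 8 and 12 this went with less Rag1, and in replicates 10 and 11 with more Rag2. The log2 difference of the ratio was -0.92 (exact permutation p = 0.00794, 0.0159 adjusted over 4 ratios). It lay between -0.94 and -0.86 without control replicate 2, 4, 5 or 6, where the adjusted p was 0.0635. The groups still did not overlap in these comparisons, which had unequal numbers of samples. An annotated gene, B230118H07Rik, shares exon sequence with Rag1 on the same strand and with Rag2 on the opposite strand, and how the authors' counting divided reads among these genes is not given. B230118H07Rik itself was at 388 ± 16.6 in controls and 382 ± 56.0 in the other group (SD, n = 5 each; limma adjusted p = 0.817).

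Dntt (ENSMUSG00000025014.13, chr19:41029275-41059525, plus strand) had similar values in both groups. Controls had 6755, 8939, 6841, 11064 and 9718, and the labelled Sirt1-deleted samples had 8432, 10313, 8576, 11071 and 9723. The ranges overlapped, although control replicates 2 and 4 were below every labelled Sirt1-deleted sample. The log2 difference was 0.17 (limma adjusted p = 0.328). In the libraries with the lowest Rag1, Dntt was therefore at 97.3% (replicate 7), 119% (replicate 8) and 112% (replicate 12) of the control mean.

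Among the early surface genes, Il2ra was lower and Cd44 higher in the labelled Sirt1-deleted samples. Il2ra (ENSMUSG00000026770.5, chr2:11642807-11693193, plus strand) had 454, 495, 347, 417 and 477 in controls. It had 169, 212, 424, 439 and 186 in replicates 7, 8, 10, 11 and 12. These are the same libraries that were low in Rag1: replicates 7, 8 and 12 were below all controls, at 38.7%, 48.4% and 42.5% of the control mean, and replicates 10 and 11 were at 96.8% and 100.2%. The log2 difference was -0.73 (95% interval -1.28 to -0.17, limma adjusted p = 0.0415; exact permutation p = 0.0714). Leaving out control replicate 2, 3, 5 or 6 or labelled Sirt1-deleted replicate 7, 8 or 12 ended this call, with differences between -0.74 and -0.57 and adjusted p up to 0.101. The regulatory T-cell factor Foxp3, whose cells also carry CD25, was at 7.63 to 18.3 in controls and 9.29 to 16.6 in the other group. Of 7 regulatory and activated T-cell markers tested, 1 rose and 3 fell, where 16.8% of all tested genes were higher and 19.4% lower. Among them, Ctla4 fell by 0.70 and Icos by 0.67 on the log2 scale (limma adjusted p = 0.0434 and 0.00605), while Tnfrsf4 rose by 0.56. The part of such cells in the Il2ra values was not tested.

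Cd44 encodes a receptor for hyaluronan that is also carried by activated T cells and by many myeloid cells. Its values were 530, 519, 387, 453 and 403 in controls and 580, 711, 521, 578 and 721 in the labelled Sirt1-deleted samples (ENSMUSG00000005087.17, chr2:102811141-102901665, minus strand). All but replicate 10 were above every control. The mean rose from 459 ± 65.3 to 622 ± 88.7 (SD, n = 5 each), a log2 difference of 0.44 (SE 0.12, limma adjusted p = 0.0125; exact permutation p = 0.0159). The summed neutrophil and macrophage markers were higher in these 5 samples than in any control. Within the group, replicate 10, with the least Cd44, was lowest in both sums, at 0.0838% (neutrophil) and 0.0198% (macrophage). Replicate 12, with the most Cd44, had a neutrophil sum of 0.130%, above replicate 11 (0.114%) and below replicates 7 (0.173%) and 8 (0.290%). Its macrophage sum of 0.0222% was below replicates 7 (0.0236%), 8 (0.0371%) and 11 (0.0234%). The part of neutrophils and macrophages in the Cd44 value was not tested.

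The ratio of Cd44 to Il2ra within a sample was 1.17, 1.05, 1.12, 1.09 and 0.845 in controls and 3.42, 3.35, 1.23, 1.32 and 3.88 in replicates 7, 8, 10, 11 and 12. All 5 labelled Sirt1-deleted samples were above all controls, replicates 10 and 11 by a small margin. The log2 difference was 1.16 (exact permutation p = 0.00794, 0.0159 adjusted over 4 ratios). The difference was 1.09 to 1.20 without any 1 control, where the adjusted p was 0.0952 to 0.111. The groups still did not overlap in these comparisons, which had unequal numbers of samples. Kit (ENSMUSG00000005672.12, chr5:75574916-75656722, plus strand) had 200, 190, 280, 237 and 187 in controls and 254, 206, 201, 197 and 292 in the labelled Sirt1-deleted samples. Its groups overlapped, with a log2 difference of 0.07 (95% interval -0.25 to 0.39, limma adjusted p = 0.734), and the sign turned to -0.02 without replicate 12.

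**Figure D4:**
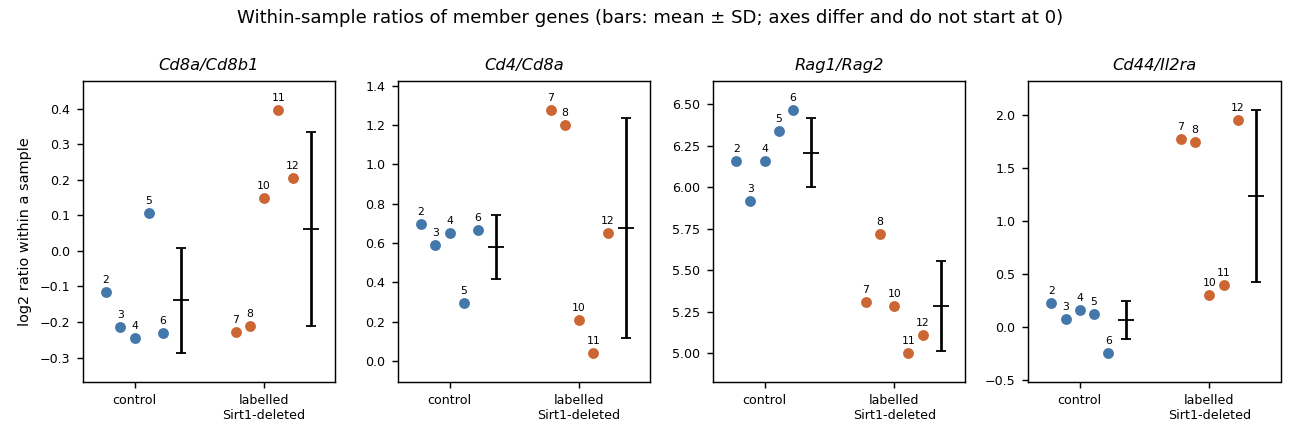
Log2 ratio of paired genes within each sample, with replicate numbers and the mean ± SD of 5 samples, for control (blue) and labelled Sirt1-deleted (orange) samples; axes differ and do not start at 0. Rag1/Rag2 and Cd44/Il2ra do not overlap between groups (log2 differences -0.92 and 1.16), while Cd8a/Cd8b1 and Cd4/Cd8a do.

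Cd24a, which encodes a small membrane-anchored glycoprotein, was the highest of the 10 genes per kb (ENSMUSG00000047139.9, chr10:43578284-43584265, plus strand). Controls had 13503, 11248, 12599, 13039 and 14172, and the labelled Sirt1-deleted samples had 8246, 7485, 10822, 12067 and 7970. Replicates 7, 8, 10 and 12 were below all controls, and replicate 11 was within the control range. The mean fell from 12912 ± 1098 to 9318 ± 2009 (SD, n = 5 each), with a log2 difference of -0.49 (SE 0.12, limma adjusted p = 0.00829; exact permutation p = 0.0159). Replicates 7, 8 and 12, at 63.9%, 58.0% and 61.7% of the control mean, were again the lowest. Neutrophil transcripts, from cells that also carry CD24, were higher in these samples than in controls. The summed erythroid markers were 0.131% to 0.396% of the total in controls, lowest in replicate 3 and highest in replicate 6, as was Cd24a. They were 0.396%, 0.118%, 0.287%, 0.474% and 0.175% in labelled Sirt1-deleted replicates 7, 8, 10, 11 and 12. The part of neutrophils or erythroid cells in the Cd24a values was not tested.

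The genes that fell did so in different samples, a difference that was not tested. Cd8b1 was below the control mean by 0.26 to 0.60 on the log2 scale in all 5 labelled Sirt1-deleted samples. Rag1 was 0.81 to 1.13 below in replicates 7, 8 and 12 and 0.02 and 0.03 below in replicates 10 and 11. Il2ra was 1.03 to 1.35 below in the former, and in replicates 10 and 11 stood at -0.04 and 0.01. Cd24a was below in all 5, by 0.64 to 0.78 in replicates 7, 8 and 12 and by 0.25 and 0.09 in replicates 10 and 11.

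**Figure D5:**
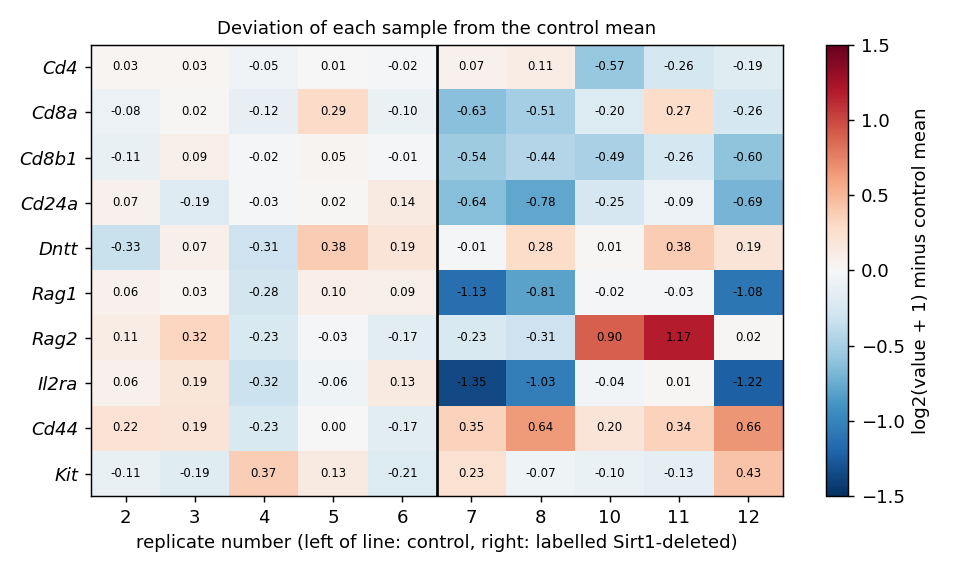
Log2(normalized count + 1) of each gene in each sample minus the control mean of that gene, with controls left and labelled Sirt1-deleted samples right of the line. Rag1 and Il2ra are blue in replicates 7, 8 and 12 and near white in 10 and 11, where Rag2 (0.90 and 1.17) is red.

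Genes known from the same stages were read from the same fit. Of 12 genes of the stages before and at the beta-chain checkpoint, 2 rose and 5 fell (median log2 difference -0.18, all tested genes -0.00014). Over all tested genes, 16.8% were higher and 19.4% lower. Il7r, the interleukin 7 receptor chain that supports early thymocytes, fell from 1667 ± 266 to 870 ± 184 (log2 difference -0.95, limma adjusted p = 0.00102). Egr3, a factor induced by receptor signals, fell by 1.05 on the log2 scale (limma adjusted p = 0.000477). Tcf7, a factor of T-cell commitment and the highest gene of this list, fell from 77942 ± 2611 to 58426 ± 5636. Erg, a stem and progenitor factor, rose from 13.3 ± 2.64 to 40.6 ± 15.7 (log2 difference 1.46). Ptcra, the partner chain of the beta chain at the checkpoint, was singled out after its values were seen. It had 488 to 668 in controls and 278, 284, 1171, 1157 and 351 in replicates 7, 8, 10, 11 and 12, so that the samples with low Rag1 and Il2ra were also below all controls in Ptcra and the other two were above all of them. The group difference of Ptcra did not pass the test (limma adjusted p = 0.7496).

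Among 13 genes of the stage with both coreceptors, 1 rose and 6 fell (median -0.02). Themis, a signalling protein of positive selection, fell from 8141 ± 361 to 5801 ± 288 (log2 difference -0.49, limma adjusted p = 0.000101). Tcf12, which encodes an E protein, fell by 0.44 and Satb1, a chromatin organizer, by 0.35 on the log2 scale. Cd38, an enzyme on the surface of thymocytes and of many other leukocytes, rose from 88.2 ± 13.3 to 160 ± 37.6. Of 15 genes of mature single-positive cells, 4 rose and 1 fell (median 0.15), where 16.8% of all tested genes were higher and 19.4% lower. Gimap3, a GTPase of lymphocyte survival, Itgb7, an integrin chain, and Ms4a4b, a membrane protein of T cells, rose by 0.87, 0.81 and 0.72 on the log2 scale. Each of them was within the control range in replicate 10. Cd5, the 1 that fell, went from 5625 ± 330 to 3685 ± 298 (log2 difference -0.61, limma adjusted p = 0.000104), with every labelled Sirt1-deleted sample below every control. Of 11 early thymic progenitor genes tested, 2 rose, Spi1 (1.33) and Hhex (0.88), and 0 fell (median 0.06). Spi1 encodes PU.1, which myeloid cells also express, and Lmo2, the highest of that list, did not pass (0.05, limma adjusted p = 0.820).

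Regulators of coreceptor and RAG transcription had 2 of 14 higher and 8 lower (median -0.13), where 16.8% of all tested genes were higher and 19.4% lower. Upper-quartile rescaling gave 3 higher and 5 lower, and quantile normalization 2 higher and 5 lower. Ikzf3 and Ikzf1, zinc-finger factors of the Ikaros family, fell from 12720 ± 1812 to 6578 ± 1342 and from 47405 ± 3897 to 31567 ± 2248 (log2 differences -0.96 and -0.59, limma adjusted p = 0.000481 and 0.000177). Zfp608, reported to repress the RAG genes, was low and rose from 19.0 ± 5.26 to 37.8 ± 7.62 (log2 difference 0.98). Of 14 end-joining genes and RAG cofactors, 1 rose and 6 fell (median -0.13). Dclre1c, the Artemis nuclease that opens the hairpins made by RAG, fell from 788 ± 21.8 to 629 ± 33.1, and Xrcc5, the Ku80 end-binding protein, fell by 0.30 on the log2 scale. Nhej1, which bridges ends with XRCC4, fell by 0.89, with log2 differences of -1.04 to -0.73 over all alternatives. Its call was lost with the exact rank-sum test and without control replicate 2 or 6 or labelled Sirt1-deleted replicate 12. Hmgb1, a DNA-bending cofactor of RAG and the highest of this list, did not pass the test (-0.08, limma adjusted p = 0.220). The 1 gene that rose, Hmgb2, was no longer called after quantile or T-lineage rescaling.

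Pan-T genes were divided, with 3 of 12 higher and 3 lower (median -0.03). Over all tested genes, 16.8% were higher and 19.4% lower. Thy1 rose from 53217 ± 3677 to 79592 ± 17084 and was highest in replicates 7, 8 and 12, at 90569, 82730 and 100216. Lat, a signalling adaptor, rose by 0.35, and Cd6, a surface receptor, fell by 0.34 on the log2 scale. Among markers of other cells, Ly6g, a neutrophil surface protein, rose from 20.9 ± 8.81 to 223 ± 79.5, Ltf, a neutrophil granule protein, from 1230 ± 191 to 9746 ± 5385, and C1qa, a complement chain of macrophages, from 198 ± 21.5 to 552 ± 115. The neutrophil list had a median log2 difference of 2.20 and the macrophage and monocyte list 0.93.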

How the data were processed

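RNA from 10 leukemic spleens was sequenced from strand-specific libraries after red blood cell lysis, per the labels' protocols. The deposited values are a normalized signal: counts per gene divided by DESeq factors by the authors, per the submitters' processing notes and the file name. The authors' notes list kallisto 0.44.0 and mm10 beside it, with no role. Neither an annotation nor a filter on genes is given in the sources used here. The table has 0 columns outside the 10 samples. The 10 genes and all gene lists were chosen with earlier results of these data known.

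Log2(value + 1) was compared between groups with limma 3.58.1 in R 4.3.3 (intensity trend, group as the only term) for genes with a mean of at least 10, with Benjamini-Hochberg adjustment over all of them at 0.05. The fit was tested on simulated data. Log2 differences understate changes of low values. An exact permutation test, two-sided, was applied to single genes and to 4 log2 ratios. Named genes are the 10 genes and, from each list, up to 3 called genes with the largest difference and the gene with the highest mean; Hmgb2, Foxp3, Cd3e and Ptcra were added for the text, and 1 gene that the rule names is not reported here. Positions and lengths are from GENCODE M21 (mm10), by symbol, using protein-coding transcripts. Labels do not say that samples are separate cultures or animals of separate leukemias, so p-values measure the spread between these samples only. Depth in reads is unknown. Alternatives were other pseudocounts, filters, scalings, variance models, a rank-sum test and omission of each sample.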

Additional observations from a re-analysis of the deposited data

Results flagged for a closer look

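Control replicate 4 stood apart from the other controls in Rag1, at 4185 where the others lay between 5190 and 5443: its gap to the nearest was 0.798 of the range of the 5 controls. Control replicate 5 stood apart in the ratio of Cd4 to Cd8a, at 0.29 on the log2 scale where the others lay between 0.59 and 0.70, with a gap of 0.743 of the range. Dixon's critical value for 5 samples is 0.71. It was exceeded in 2 of 30 sets of 5 values, and chance gives about 1 set in 20, or 1.5 of 30.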

How the results depend on the processing

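Of the 10 genes, 5 differed in 7 of the 11 processing alternatives. Without the intensity trend 3 did, and with an exact rank-sum test 1 did, Cd8b1, as did 3659 of all genes. With 5 against 5 samples, the rank-sum test passed only genes whose groups did not overlap (24.0% of all tested genes), so it is no separate check of that trait. With 1 sample left out, 3 to 6 of the 10 genes and 4207 to 6259 of all genes differed. Cd8b1 was called under all 21 alternatives. Cd44 and Cd24a, each with 1 labelled Sirt1-deleted sample within the control range, were lost only with the rank-sum test (adjusted p = 0.0512 each). Rag1 was also lost without the trend and with the rank-sum test, and Il2ra with these and upper-quartile rescaling (adjusted p up to 0.184). Cd8a was gained with array weights (-0.38, limma adjusted p = 0.0393). Cd4, Rag2, Dntt and Kit were called under none. With 1 sample left out, Kit ranged from -0.0173 to 0.17, Rag1/Rag2 from -1.03 to -0.85, Cd44/Il2ra from 0.98 to 1.40 and Cd4/Cd8a from -0.054 (without labelled Sirt1-deleted replicate 7; -0.03 without replicate 8) to 0.25. Upper-quartile rescaling moved the median of all genes to 0.06 and the share of calls that were higher from 46.4% to 58.2%. The cause of these shifts was not tested.

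No paired analysis was possible because no number in the titles occurs in both groups. Neither planned count model, edgeR or DESeq2, was run, as the values did not go back to whole reads: 71.4% to 73.9% of low values lay within 0.1 of a whole multiple of the step between them. Without read counts, the precision that depth gives to low genes such as Rag2 is unknown.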

Other observations

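Some markers listed for other cells stood high. Gzma, a granule protease of killer lymphocytes, was at 13344 normalized counts per kb in controls and 15042 in the labelled Sirt1-deleted samples, at the 98.9 percentile of tested genes in controls. Prf1, the pore protein stored with it, was at 6.57 and 8.45 per kb. Ikzf2, an Ikaros-family factor listed with regulatory T cells, was at 1792 and 1668 per kb, whereas Foxp3 was at 3.48 and 3.47. Ighm, the immunoglobulin heavy chain gene, had normalized counts of 19266 ± 1347 in controls and 20921 ± 2886 in the other group (SD, n = 5 each), and Cd79a, a B-cell receptor chain, was at 89.1 and 127 per kb. No difference between groups passed the test for Gzma, Ikzf2 or Ighm (limma adjusted p = 0.238, 0.324 and 0.315).

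Of 5 basophil, mast cell and progenitor genes tested, 2 were higher and 0 lower, where 16.8% of all tested genes were higher and 19.4% lower. Hdc, which makes histamine, rose from 73.0 ± 16.2 to 233 ± 109. Mcpt8, a basophil protease listed at 0 in 3 controls, had 2.87 to 36.3 in the labelled Sirt1-deleted samples. Cpa3 (log2 difference -0.45) and Gata2 (0.13) did not pass the test (limma adjusted p = 0.146 and 0.655). Kit, which mast cells carry, did not pass the test in the same samples. Bst2, a surface protein of plasmacytoid dendritic cells that interferon also induces, had means of 2074 ± 240 and 4562 ± 552 (SD, n = 5 each) and rose by 1.14 on the log2 scale (limma adjusted p = 3.52e-05).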
